A study of Mus musculus with 20 samples.

Results

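The genes of central carbon metabolism were examined in colonic intestinal epithelial cells (IECs) of mice exposed to social disruption stress (Str) and of control mice (Con). The set held 41 genes given by name as encoding glycolysis (16), the pyruvate dehydrogenase step (5), the pentose phosphate pathway (4) and the citric acid cycle (16). All 41 had a row in the count table, of 15876 genes in all, and none was removed by a filter on low counts. The rule used gene names alone and no measured value, though the genes and lists were chosen with earlier results of these data known.

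Male C57BL/6NCrl mice aged 6 to 8 weeks formed both groups, with 10 mice and 10 RNA libraries each. For Str, an aggressive retired breeder of that strain was put into a home cage of 3 resident mice for 2 h a day on 6 days. For Con the mice were left in their cages. Tissue was taken 12 to 15 h after the last exposure, and IECs were enriched with magnetic beads as EpCAM+ CD45- cells. The cage of each mouse is not given, so mice that shared a cage could not be told from mice that did not. Library columns carry the letter V or L, with 5 of each in either group, and the meaning of the letter is not given.

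Glycolysis splits glucose into pyruvate, which epithelial cells either turn into lactate or pass into mitochondria through the pyruvate dehydrogenase complex to feed the citric acid cycle. The pentose phosphate pathway branches off the first glycolytic intermediate and yields NADPH and ribose for biosynthesis. Colonocytes are known for burning butyrate from the microbiota in their mitochondria, with glucose as the other main fuel.

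The libraries held 20390091 to 24508215 counts in Str and 20034127 to 26141352 in Con. Over all genes, the edgeR quasi-likelihood test called 1420 higher and 1226 lower in Str (adjusted p under 0.05), which is 16.7% of genes tested, 8.94% higher and 7.72% lower. Of the epithelial markers, 8 of 9 were measured, with summed levels of 13228 to 17369 CPM (counts scaled to a common library size) in Str and 13865 to 16620 CPM in Con. The 8 colonocyte markers summed to 8877 to 13893 CPM in Str (median 9752) and 9986 to 15147 CPM in Con (median 12936), with 2 called higher and 3 lower, which is 62.5% of them. Of the leukocyte markers, 5 of 15 were measured and summed to 37.2 to 131 CPM in Str and 22.9 to 45.1 CPM in Con. Most of that sum was Ly6g, at 29.9 to 123 CPM in Str and 17.3 to 38.4 CPM in Con (log2 fold change 1.39, edgeR adjusted p = 0.000109), and the part of these marker differences in the results was not tested. Of the 5 leukocyte markers, 2 were called higher (40%) and 3 lay below 0 on the log2 fold scale. Over all 5 the median log2 fold change was -0.10. Ptprc, which encodes CD45, was not called. In bulk libraries such as these, fewer cells of a type and less RNA per cell cannot be told apart. The fibroblast and smooth muscle markers summed to 198 to 532 CPM in Str and 155 to 516 CPM in Con, with all 11 above 0 on the log2 fold scale (median 0.25, 0.05 to 0.42). edgeR called 0 of these 11, and 0 were called by DESeq2 or limma-voom. At an unadjusted edgeR p under 0.05 there were 0 of the 11, beside 4813 of all 15876 genes. Alb, a hepatocyte transcript, ranged over 69.3 to 79.9 CPM in Con libraries CV3, CV4, CV6 and CL1, while its range was 1.64 to 3.18 CPM over Str and 1.73 to 3.19 CPM over the remaining 6 of Con. Without those 4 libraries, where 9.21% of genes were called, 6 of the 11 calls below held, and the 5 that did not are marked where they are given.

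Of the 41 genes, 6 were higher and 5 lower in Str, which is 26.8% of them, beside 16.7% of all genes. Of the 16 glycolysis genes 5 were higher (Pfkfb3, Hk2, Hk1, Pfkp and Pkm) and 2 lower (Pfkm and Gpi1). In the citric acid cycle 1 gene was higher and 2 were lower, in the pentose phosphate pathway 1 was lower, and no pyruvate dehydrogenase gene was called. Only Pfkfb3 and Hk2 differed by more than 0.5 on the log2 scale. In all other genes of the set the log2 fold change lay between -0.37 and 0.18. Levels are given as CPM scaled by edgeR's TMM factors, and fold changes are Str over Con with standard errors (SE) and 10 libraries in each group.

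**Figure D1:**
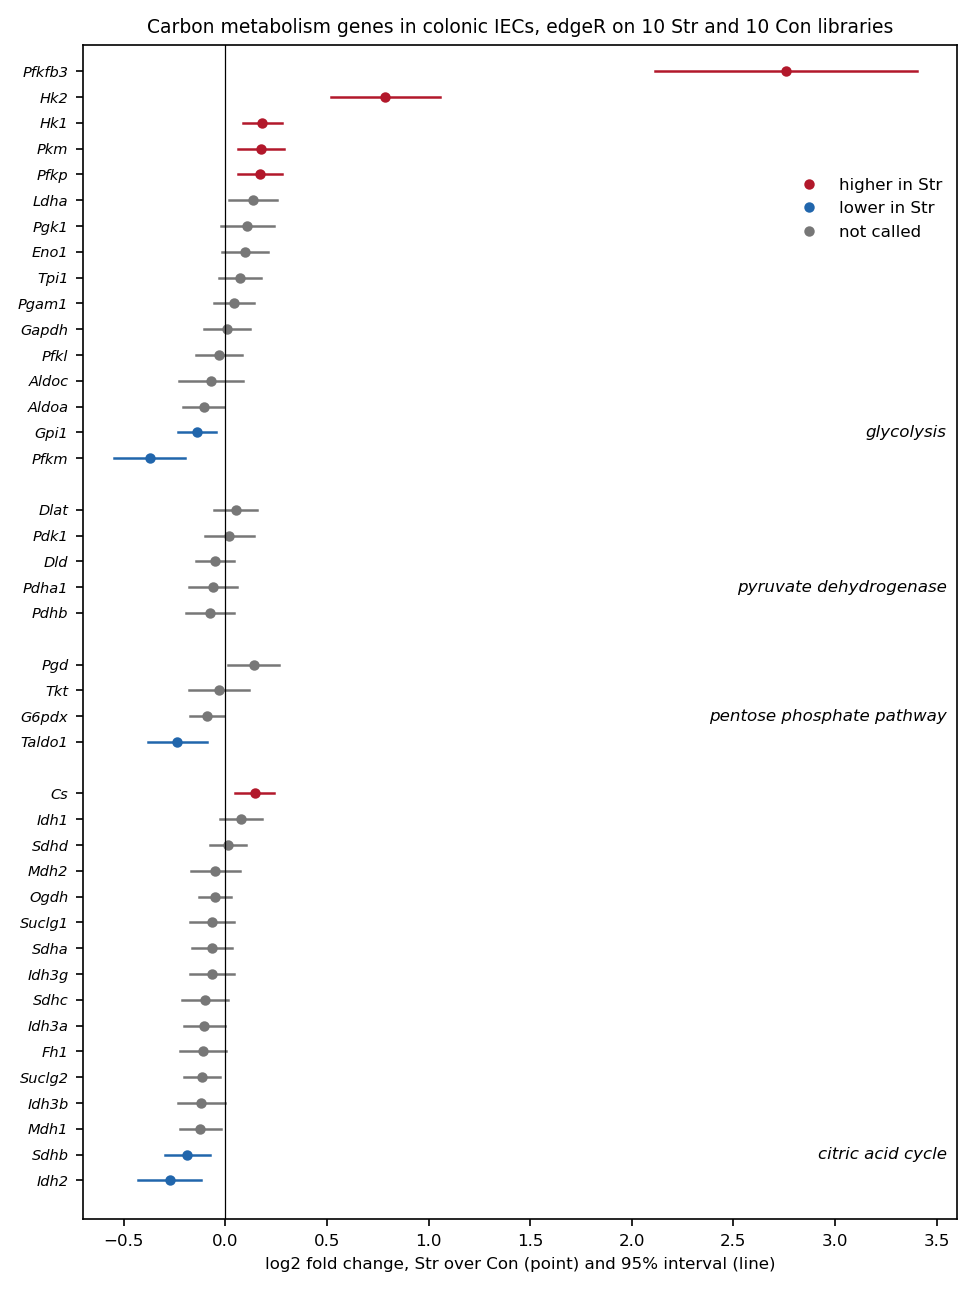
Log2 fold change (Str over Con, edgeR, 10 libraries in each group) of the 41 genes, by list and in falling order, with the 95% interval as a line and the call in colour. Pfkfb3 at 2.76 and Hk2 at 0.79 lie apart from the other 39 genes, and 13 of 16 citric acid cycle genes lie left of 0.

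Pfkfb3 was the gene of the set that differed most. It encodes a bifunctional enzyme whose kinase activity makes the sugar phosphate that activates phosphofructokinase, so it acts as an accelerator of glycolysis, and it lies on chr2:11471433-11554077 of GRCm38, on the minus strand. Pfkfb3 was at 13.4, 61.6 and 97.3 CPM (lowest, median, highest) in Str, against 5.49, 7.50 and 12.9 CPM in Con. All 10 Str libraries lay above all 10 Con libraries, with Str library SL4 lowest and Con library CV1 highest of its group. The log2 fold change was 2.76 (SE 0.312, 95% interval 2.11 to 3.40), a 6.76-fold difference (edgeR adjusted p = 1.05e-05). Of all genes, 0.239% had every Str library above every Con library. The spread among Str mice was wide, with a coefficient of variation of 56.2% in Str and 27.4% in Con. Str libraries SL4, SL5 and SV5 held 13.4, 16.7 and 25.7 CPM, while SL2, SV1 and SL1 held 97.3, 83.9 and 75.7 CPM.

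Hk2 encodes the inducible hexokinase that binds mitochondria and commits glucose to the cell, and it lies on chr6:82725025-82774454, on the minus strand. Hk2 was at 326, 460 and 596 CPM in Str and at 201, 239 and 392 CPM in Con. Of the Str libraries, 7 of 10 lay above all Con libraries and all 10 above the Con median. The fold change was 1.73 (log2 0.79, SE 0.130, 95% interval 0.52 to 1.06, edgeR adjusted p = 0.000317). The 3 Str libraries with the least Pfkfb3, SL4, SL5 and SV5, also held the least Hk2, at 336, 326 and 335 CPM. SL2 was the highest Str library for both genes, and CV1 was the highest Con library for both.

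The start regions of both genes are shown because these are the 2 genes of the set with the largest differences and because they share a short motif. The windows span 250 bases before to 50 after the start in RefSeq (GRCm38.p6), read 5′ to 3′ on the minus strand. Capitals mark ACGTG on either strand, the core of the site that hypoxia-inducible factors bind; where 2 matches overlap as CACGTG, the E-box that MYC and other basic helix-loop-helix factors bind, all of it is in capitals.
Pfkfb3, first start, chr2:11553880-11554179: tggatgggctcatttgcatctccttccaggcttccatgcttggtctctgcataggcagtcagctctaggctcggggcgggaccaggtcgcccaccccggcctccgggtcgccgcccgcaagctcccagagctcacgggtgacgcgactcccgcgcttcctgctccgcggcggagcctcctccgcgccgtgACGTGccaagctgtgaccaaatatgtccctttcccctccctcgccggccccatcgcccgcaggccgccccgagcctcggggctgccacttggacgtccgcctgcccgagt
Pfkfb3, second start, chr2:11502041-11502340: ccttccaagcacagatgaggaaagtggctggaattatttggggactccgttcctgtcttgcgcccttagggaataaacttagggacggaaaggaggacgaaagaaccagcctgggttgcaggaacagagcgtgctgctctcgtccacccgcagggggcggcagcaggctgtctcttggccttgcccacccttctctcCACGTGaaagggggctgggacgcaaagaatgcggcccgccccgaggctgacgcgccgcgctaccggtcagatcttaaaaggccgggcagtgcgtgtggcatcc
Hk2, chr6:82774405-82774704: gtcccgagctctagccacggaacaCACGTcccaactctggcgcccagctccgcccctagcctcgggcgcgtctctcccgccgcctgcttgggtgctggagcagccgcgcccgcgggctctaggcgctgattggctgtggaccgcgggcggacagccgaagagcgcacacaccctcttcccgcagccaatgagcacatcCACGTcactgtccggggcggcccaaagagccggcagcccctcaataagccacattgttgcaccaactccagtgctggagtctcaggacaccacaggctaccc
The match in the first Pfkfb3 window begins 60 bases before the start, and the overlapping pair in the second begins 53 and 52 bases before it. In Hk2 the matches begin 226 and 52 bases before the start. Of all 32851 promoter windows, 19.6% hold ACGTG, as do 24.5% of the windows of genes of the table. Of the 59 windows of the set 25 hold it (42.4%). Counted by gene, with a match in any window, it was found in 17 of the 39 genes of the set with a window (43.6%), beside 28.4% of the 10752 genes of the table with a window. The 17 include 4 of the 6 higher genes (Hk1, Hk2, Pfkfb3 and Pkm) and 1 of the 5 lower genes (Pfkm). By gene, CACGTG was found in 4 of 39 (10.3%), beside 11.4% of the genes of the table. It stood in 7.15% of all windows, 9.51% of the windows of genes of the table and 6 of the 59 of the set (10.2%). The STAT motif TTCCNGGAA was found in 1 of 39 (2.56%), beside 1.60% of the genes of the table, with 0 among the called genes. It stood in 1.15% of all windows, 1.29% of the windows of genes of the table and 1 of the 59 of the set (1.69%). Idh3a and Sdhc have no window. A match is a stretch of letters and not a measured binding site.

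The other 3 glycolysis genes higher in Str differed by 12.6% to 13.5%. Hk1 (chr10:62268855-62379908), the housekeeping hexokinase, was at 319, 366 and 397 CPM in Str and 282, 318 and 351 CPM in Con (log2 0.18, SE 0.047, edgeR adjusted p = 0.00936). All 10 Str libraries lay above the Con median and 6 above all Con libraries. Pfkp (chr13:6579768-6648777), the platelet-type phosphofructokinase, was at 325, 386 and 421 CPM in Str and 303, 338 and 373 CPM in Con (log2 0.17, SE 0.051, edgeR adjusted p = 0.0242). Pkm (chr9:59656368-59679375), the pyruvate kinase that makes pyruvate and ATP, was at 928, 1122 and 1195 CPM in Str and 850, 991 and 1090 CPM in Con (log2 0.18, SE 0.055, edgeR adjusted p = 0.0288). For both, 7 Str libraries lay above all Con libraries and SV4 was the lowest Str library. None of the 3 stayed called without the 4 Con libraries that hold Alb, at log2 values of 0.16 for Hk1, 0.12 for Pfkp and 0.14 for Pkm. Pfkp lost its call without SL2 (log2 0.15 to 0.19 over the single libraries left out, edgeR adjusted p 0.011 to 0.053). Pkm lost it without any one of CV6, CL6, SV1, SV2, SL1 and SL2 (log2 0.16 to 0.20, edgeR adjusted p 0.011 to 0.058). Of Pkm's longest transcript, 34.4% of 50-base windows occur in another annotated gene, and 748 bases of Pfkp's exons lie opposite Pitrm1, so counts of both could hold reads of other genes.

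Pfkm and Gpi1 were the glycolysis genes lower in Str. Pfkm (chr15:98092589-98132451), the muscle-type phosphofructokinase, was at 9.58, 12.6 and 14.4 CPM in Str and 13.1, 15.7 and 19.2 CPM in Con. Of the Str libraries 7 lay below all Con libraries, and the level fell by 22.7% (log2 -0.37, SE 0.085, edgeR adjusted p = 0.00446). Without the 4 Con libraries that hold Alb it was -0.28 on the log2 scale and not called. Gpi1 (chr7:34201330-34230336), the isomerase that turns glucose phosphate into fructose phosphate, was at 475, 516 and 587 CPM in Str and 523, 577 and 638 CPM in Con. It fell by 9.17% (log2 -0.14, SE 0.044, edgeR adjusted p = 0.0337), with 6 Str libraries below all Con libraries. Its call was lost without any one of 11 of the 20 libraries (CV1, CV2, CV3, CL3, CL6, SV2, SV4, SV6, SL1, SL2 and SL6), at log2 values of -0.16 to -0.12 and edgeR adjusted p of 0.011 to 0.067. Of the windows of Gpi1, 19.3% occur in another gene, and 341 bases of Pfkm's exons overlap Gm26513 on the same strand.

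**Figure D2:**
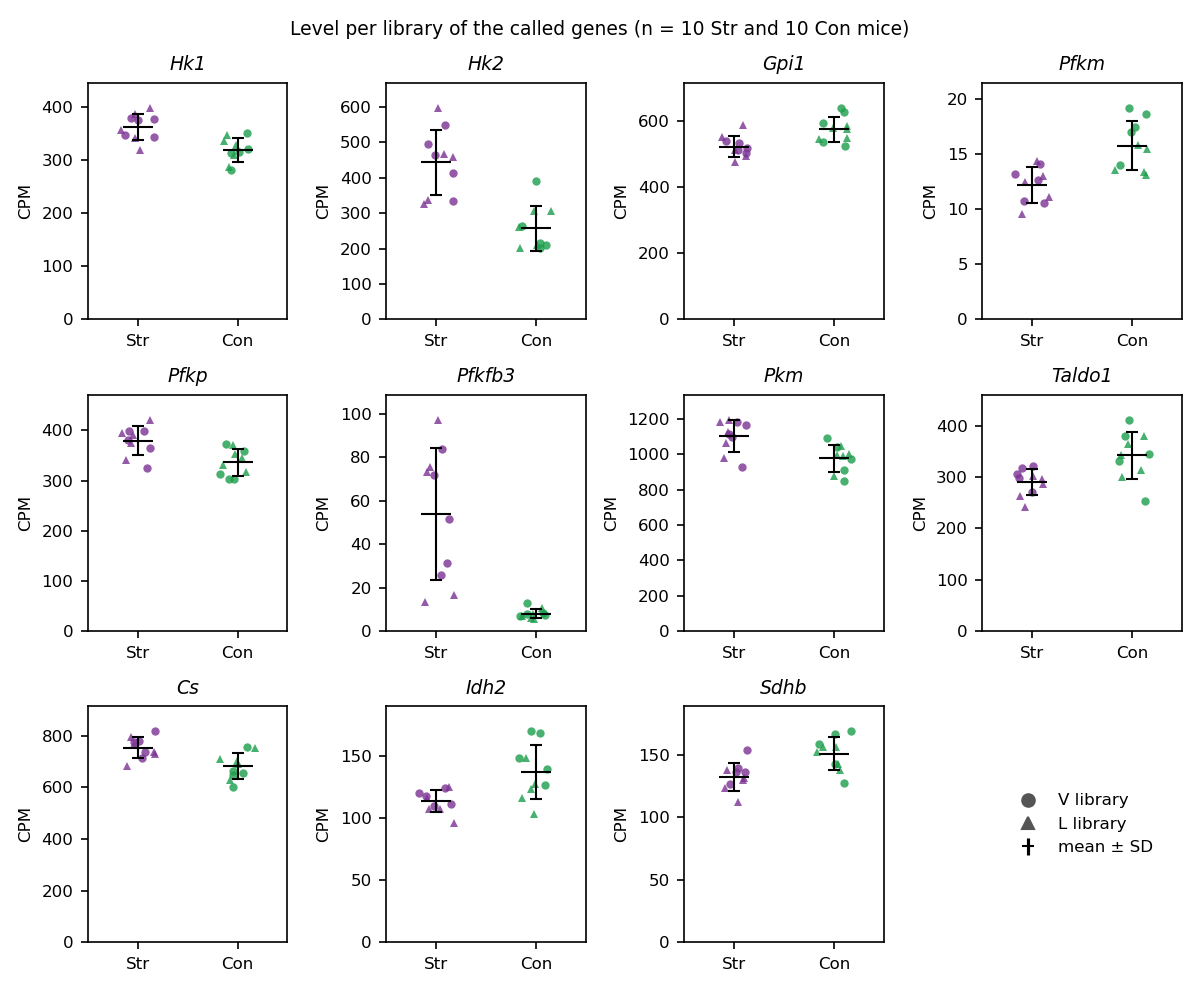
CPM (TMM-scaled, linear axes from 0) of the 11 called genes in each library, Str left and Con right, with circles for V and triangles for L libraries and the mean ± SD over 10 libraries. Pfkfb3 is the only one of the 11 whose groups do not overlap, and the other 10 differ in their centres while sharing part of their range.

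The remaining 9 glycolysis genes did not pass the test. Ldha, the lactate dehydrogenase subunit that makes lactate from pyruvate, was at log2 0.14 (95% interval 0.02 to 0.26, edgeR adjusted p = 0.110), with 5 Str libraries above all Con libraries. The genes of the later steps had log2 values of 0.07 for Tpi1, 0.01 for Gapdh, 0.11 for Pgk1, 0.04 for Pgam1 and 0.10 for Eno1. The liver-type phosphofructokinase gene Pfkl was at -0.03 and the brain-type aldolase gene Aldoc at -0.07. Aldoa, an aldolase, was at 968, 1036 and 1082 CPM in Str and 918, 1128 and 1242 CPM in Con. All 10 Str libraries lay below its Con median, but Con library CV4 lay below all Str libraries and the difference did not pass (log2 -0.11, edgeR adjusted p = 0.139). It passed without CV4 and without the 4 Con libraries that hold Alb, of which CV4 is one. Over the list the median log2 fold change was 0.08, beside -0.0042 over all genes, with 5 of 16 below 0. Gapdh, Eno1, Pgk1 and Pgam1 share 82.5%, 72.2%, 68.0% and 41.5% of their windows with other annotated genes, so their counts are uncertain.

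The 5 pyruvate dehydrogenase genes, which encode the complex that turns pyruvate into acetyl-CoA and a kinase that blocks it, had 0 called in either direction. At an unadjusted edgeR p under 0.05 there were also 0 of the 5, beside 4813 of all 15876 genes. DESeq2 and limma-voom called none of the 5 either. Pdhb, a subunit of the catalytic E1 enzyme, was at 114, 129 and 147 CPM in Str and 120, 140 and 164 CPM in Con (log2 -0.07, 95% interval -0.19 to 0.04, edgeR adjusted p = 0.405). Dld, the dehydrogenase shared with the citric acid cycle, was at 173, 189 and 220 CPM in Str and 176, 200 and 212 CPM in Con (log2 -0.05, edgeR adjusted p = 0.477). Pdha1, the other E1 subunit, was at 333, 384 and 434 CPM in Str and 357, 396 and 468 CPM in Con (log2 -0.06, edgeR adjusted p = 0.508). In each of the 3 the ranges of the groups overlapped. Dlat, the acetyltransferase core, was at log2 0.05 and the kinase gene Pdk1 at 0.02.

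In the pentose phosphate pathway Taldo1 was lower in Str. It lies on chr7:141392199-141402968 and encodes transaldolase, which links the sugar phosphates of the non-oxidative branch back to glycolysis. Taldo1 was at 242, 297 and 321 CPM in Str and 253, 343 and 411 CPM in Con, with all 10 Str libraries below the Con median. It fell by 15.1% (log2 -0.24, SE 0.070, edgeR adjusted p = 0.0224). G6pdx, the entry enzyme that makes NADPH, was at 81.5, 89.2 and 95.6 CPM in Str and 85.0, 96.8 and 104 CPM in Con (log2 -0.09, edgeR adjusted p = 0.141). All 10 Str libraries of G6pdx also lay below the Con median, and it was called as lower without the 4 Con libraries that hold Alb, at -0.14. Pgd, the next NADPH-making enzyme, was at 11.1, 12.7 and 14.8 CPM in Str and 10.2, 11.8 and 13.4 CPM in Con (log2 0.14, edgeR adjusted p = 0.121), and Tkt, transketolase, was at log2 -0.03. The entry gene G6pdx and the next gene Pgd had estimates on opposite sides of 0, neither of them called. The median of the 4 was -0.06.

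The citric acid cycle genes mostly lay slightly below 0, at 13 of 16, with a median log2 fold change of -0.08. Over all genes 51.0% lay below 0. Idh2 (chr7:80094846-80115392), the mitochondrial isocitrate dehydrogenase that makes NADPH, was at 96.2, 114 and 125 CPM in Str and 103, 133 and 170 CPM in Con. It fell by 17.3% (log2 -0.27, SE 0.075, edgeR adjusted p = 0.0150), with all 10 Str libraries below the Con median and a wider spread in Con (coefficient of variation 7.79% in Str and 15.9% in Con). Sdhb (chr4:140961203-140979193), the iron-sulfur subunit of succinate dehydrogenase, was at 112, 133 and 154 CPM in Str and 128, 154 and 169 CPM in Con. It fell by 12.2% (log2 -0.19, SE 0.054, edgeR adjusted p = 0.0188), again with all 10 Str libraries below the Con median. Cs (chr10:128337734-128362479), citrate synthase, the enzyme that admits acetyl-CoA to the cycle, went the other way. Cs was at 682, 751 and 817 CPM in Str and 602, 677 and 756 CPM in Con (log2 0.14, SE 0.046, edgeR adjusted p = 0.0330), with all 10 Str libraries above the Con median. The call of Cs was lost without the 4 Con libraries that hold Alb (log2 0.11). It was also lost without any one of CV2, CV3, CV6, CL6, SV1, SV2, SV6, SL1 and SL2, at log2 0.13 to 0.16 and edgeR adjusted p of 0.016 to 0.064.

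The other 13 citric acid cycle genes did not pass. Closest were Suclg2, the GTP-forming succinyl-CoA synthetase subunit, at -0.11 (edgeR adjusted p = 0.0628), and Mdh1, the cytosolic malate dehydrogenase, at -0.12 (edgeR adjusted p = 0.0839). Suclg2 had all 10 Str libraries below the Con median. It was called without CL2 or without CL4, and Mdh1 without CV4 or without SV6 (lowest edgeR adjusted p 0.045 for Suclg2 and 0.034 for Mdh1). The NAD-linked isocitrate dehydrogenase subunits were at -0.10 for Idh3a, which was called without SV6 (edgeR adjusted p = 0.042), -0.12 for Idh3b and -0.07 for Idh3g. The succinate dehydrogenase subunits other than Sdhb were at -0.07 for Sdha, -0.10 for Sdhc and 0.01 for Sdhd, so 1 of 4 subunits of the complex was called. Fumarase (Fh1) was at -0.11, the oxoglutarate dehydrogenase gene Ogdh at -0.05, Suclg1 at -0.07, mitochondrial malate dehydrogenase (Mdh2) at -0.05 and cytosolic isocitrate dehydrogenase (Idh1) at 0.08.

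**Figure D3:**
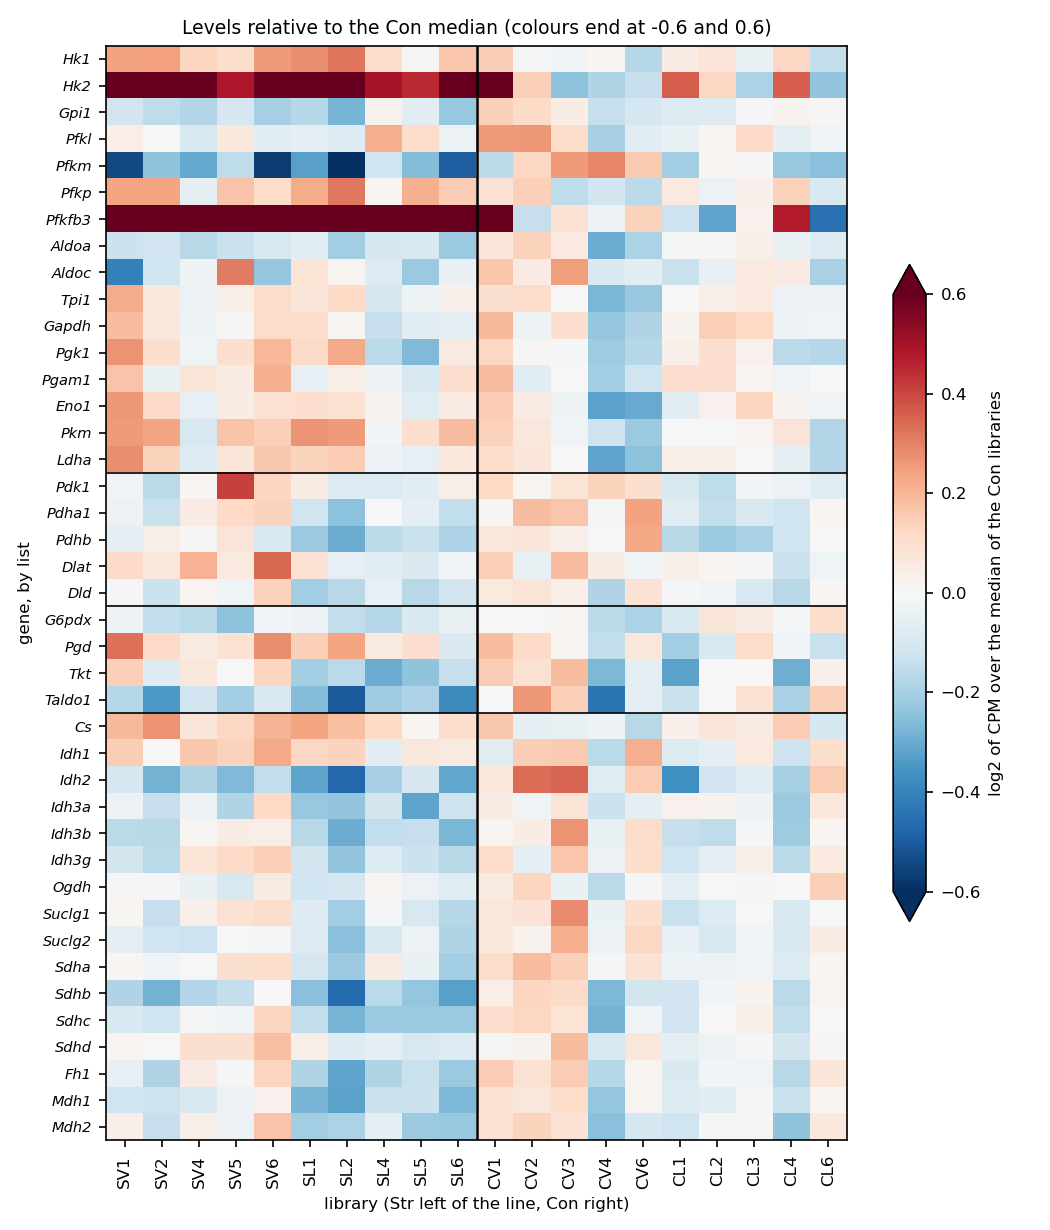
Level of each of the 41 genes (rows, by list) in each library (columns, Str left of the line and Con right) as log2 of CPM over the Con median, with colours ending at -0.6 and 0.6. Pfkfb3 and Hk2 are dark red across the Str columns and in Con library CV1, and in 10 of 16 citric acid cycle rows SL2 is the lowest of the Str columns.

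The extremes of the lists gathered in a few libraries. In Con, CV1 held the highest level in 10 of 16 glycolysis genes and CV4 the lowest in 9. In Str, SV6 held the highest level in 12 of 16 citric acid cycle genes and SL2 the lowest in 10. SL2 was at the same time the highest Str library for Hk1, Hk2, Pfkp and Pfkfb3. Genes of one list in one library are not independent, so these counts describe libraries and not conditions.

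The V and L libraries gave the same direction for all 11 called genes. The 11 were called from both letters together, so a shared direction is partly built in. The log2 fold change of Pfkfb3 was 2.60 in V and 2.92 in L libraries, that of Hk2 was 0.81 in V and 0.76 in L, and that of Pfkm was -0.50 in V and -0.24 in L. In V libraries alone 4 of the 11 were called (Hk2, Pfkm, Pfkfb3 and Idh2), and in L libraries alone 0 were, where 11 genes of the whole table passed. Of all genes, 10.2% were called in V and 0.0693% in L libraries. In L libraries 8 of the 11, and 13 of all 41, had an unadjusted p under 0.05. The 11 were called in a fit that holds these same libraries, and the share of all genes at that p is not given here. The edgeR interaction test of the difference between V and L in the effect of Str called 0 of 15876 genes. At an unadjusted p under 0.05 it gave 918 genes, 0 of them among the 41.

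Scaling mattered for the small differences. With library sizes alone in place of TMM factors, the median of all genes moved by -0.042 on the log2 scale, and 34.6% of all called genes were higher, beside 53.7% with TMM. In all 18.8% of genes were then called. Pfkp, Pkm and Cs then lost their calls (log2 0.13, 0.13 and 0.10), and Aldoa, G6pdx, Idh3a, Suclg2 and Mdh1 became called as lower. Pfkfb3, Hk2, Hk1, Pfkm, Gpi1, Taldo1, Idh2 and Sdhb kept theirs. A stricter rule, the one the study set (log2 fold change beyond 0.5 and adjusted p under 1e-05), was passed by 0 of the 41 in edgeR and by Pfkfb3 and Hk2 as higher in DESeq2. Of all genes 0.0315% passed it as higher in edgeR and 1.1% in DESeq2.

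Families of isoenzymes were compared by the share of each gene in its family's CPM per kilobase of exon, as a description with no test. Exon length summed all annotated exons of a gene and can exceed the length of a single transcript. Pfkp had 13401 bases of exon, while its longest coding transcript held 4096 windows of 50 bases, and Hk1 had 8532 against 4229. The order of genes within a group therefore depends on the length used. In the hexokinases, Hk2 made up a median of 60.5% in Str and 43.1% in Con, with 7 Str libraries above all Con libraries. Hk1 made up 33.4% in Str and 39.0% in Con, and Hkdc1, a hexokinase domain gene outside the set, 5.94% in Str and 15.6% in Con. By its level Hkdc1 was not called (log2 -0.59, edgeR adjusted p = 0.123).

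In the bifunctional phosphofructokinases, the share of Pfkfb3 was 19.6% in Str and 3.24% in Con, while Pfkfb2 stood at 42.7% in Str and 55.9% in Con and Pfkfb4 at 38.1% in Str and 38.6% in Con. Of this family only Pfkfb3 was called, and Pfkfb4 had a log2 fold change of 0.37 that did not pass (edgeR adjusted p = 0.0632). By level per kilobase, the median of Pfkfb3 was 8.14 CPM in Str, against 0.99 CPM in Con. In the phosphofructokinases, Pfkp made up 48.0% in Str and 42.8% in Con, Pfkl 46.4% in Str and 49.2% in Con, and Pfkm 6.23% in Str and 7.71% in Con. Ldha made up at least 98.7% of lactate dehydrogenase in every Str library and at least 98.3% in every Con library. By median CPM per kilobase, Aldoa, Ldha and Pkm were the 3 highest of the 41, at 356, 316 and 224 in Str and 388, 294 and 198 in Con. Pfkfb3 was the lowest of the 41 in Con. This order depends on the exon length used, which was 4133 bases for Gapdh, while its longest coding transcript held 1371 windows of 50 bases.

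**Figure D4:**
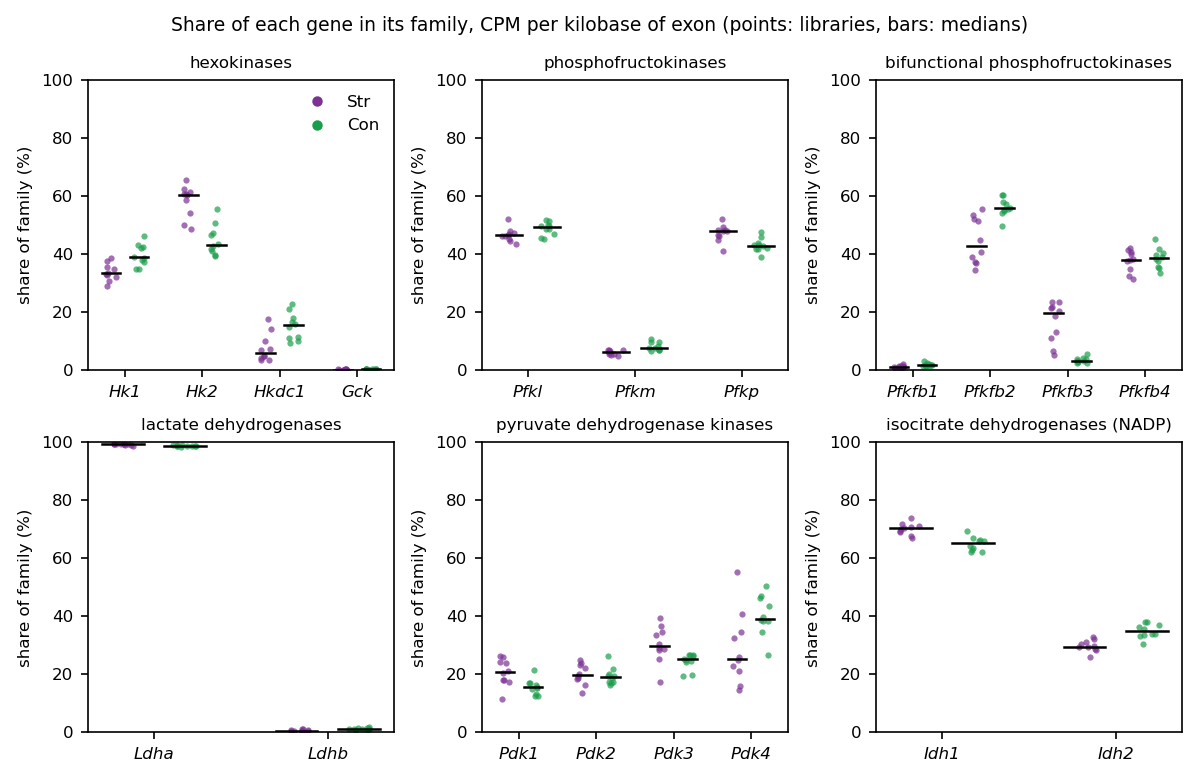
Share of each gene in the summed CPM per kilobase of exon of its isoenzyme family (percent), with Str points left of Con points and bars at the medians of 10 libraries. Exon length sums all annotated exons, and the order of genes within a group depends on it. Hk2 stands at 60.5% in Str and 43.1% in Con and Pfkfb3 at 19.6% in Str and 3.24% in Con, and Ldha makes up nearly all of its family in both groups.

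Genes next to the set in the same pathways moved in both directions. Ldhb, the lactate dehydrogenase subunit of oxidative tissues, was at 2.28, 3.25 and 6.03 CPM in Str and 3.91, 5.46 and 6.75 CPM in Con (log2 -0.59, edgeR adjusted p = 0.00462). Among other genes of sugar breakdown, the galactose enzyme gene Galm at -0.22 and the phosphoglucomutase gene Pgm2 at -0.34, both called as lower. Of 6 gluconeogenic enzymes 2 were lower, Pck1 at -0.66 and Fbp1 at -0.82, and Pcx, pyruvate carboxylase, was higher at 0.31. These calls are 50% of the 6, beside 16.7% of all genes. Fbp1, at most 2.61 CPM, was not called without the 4 Con libraries that hold Alb (-0.41). Within Con, those 4 had 1.55 to 2.61 CPM of Fbp1, above the 0.71 to 1.44 CPM of the rest.

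Of 11 transporters 3 were called (27.3%, beside 16.7% of all genes), all of them lower. Slc16a1, the main monocarboxylate transporter, which carries butyrate and lactate in colonocytes, was at 452, 512 and 592 CPM in Str and 598, 643 and 734 CPM in Con. All 10 Str libraries lay below all 10 Con libraries (log2 -0.36, edgeR adjusted p = 0.000127), as in 0.126% of all genes. Slc16a7 was at -0.51 and Slc2a8 at -0.29, and neither was called without the 4 Con libraries that hold Alb (-0.50 and -0.35). The glucose transporter gene Slc2a1 was at log2 0.13 and not called (edgeR adjusted p = 0.271).

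The kinase gene Pdk2 was lower (-0.31), as 1 of 10 other pyruvate dehydrogenase genes (10%, beside 16.7% of all genes). It was not called without the 4 Con libraries that hold Alb (-0.33). Prps1, which makes the activated ribose for nucleotides, was the only one of 7 other pentose phosphate genes to be called (14.3%). It was at 14.8, 25.5 and 31.4 CPM in Str and 13.6, 14.5 and 17.2 CPM in Con (log2 0.71, edgeR adjusted p = 8.35e-05). Of 12 other citric acid cycle genes 3 were lower (25%), Ogdhl at -0.56, Me3 at -0.72 and Nnt at -0.15. Ogdhl and Me3 were low in Con, at 0.80 to 1.49 and 1.56 to 4.19 CPM. Me3 and Nnt were not called without the 4 Con libraries that hold Alb (-0.78 and -0.12). Of 8 mitochondrial carriers 1 was lower (12.5%), Slc25a13 at -0.12. Of 20 regulators 3 were higher and 7 lower (50% called). Hif1a, which encodes the oxygen-regulated subunit of a factor that drives glycolytic genes, was at 353, 605 and 788 CPM in Str and 337, 410 and 524 CPM in Con (log2 0.46, edgeR adjusted p = 0.00667). Myc was at 0.25, and Nfe2l2, a regulator of antioxidant and pentose phosphate genes, was lower at -0.29, as was Prkaa1, an AMPK subunit, at -0.23. Without the 4 Con libraries that hold Alb, Hif1a was at 0.47, Myc at 0.31, Nfe2l2 at -0.27 and Prkaa1 at -0.25, all still called.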

How the data were processed

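RNA of EpCAM+ CD45- colonic IECs was depleted of ribosomal RNA and made into directional libraries (ScriptSeq v2). The authors aligned reads with STAR to GRCm38.p4, counted them per gene with HTSeq (the strand setting is not given in the sources used here) and deposited raw counts of 15876 genes. The same table holds 20 columns of counts divided by size factors, which were not used. Column names gave the group of each library but not the mouse.

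Genes with a mean count under 4 were to be removed, which removed 0 (the lowest mean was 6). Counts were tested with the edgeR 4.0.16 quasi-likelihood test (R 4.3.3, TMM factors, Benjamini-Hochberg adjustment over all genes), called at an adjusted p under 0.05. The SE is the log2 fold change over the square root of F, and 95% intervals use the t distribution of that test. CPM are TMM-scaled, and CPM per kilobase used summed exon length (GENCODE M21, GRCm38). Depth was 20034127 to 26141352 counts per library. The lowest chi-square per degree of freedom of 2 libraries of a group was 5.98, so no library was counted as a repeat. The fit was tested on simulated data. P-values come from setting the group difference against the spread between mice, and they take no account of cages.

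Alternatives were RLE factors, library sizes alone, other filters, DESeq2 1.42.0, limma-voom (limma 3.58.1), the letter as a covariate, either letter alone, each library left out, the 4 Con libraries that hold Alb left out and a replicate block. Every gene of the set was named. Lowest, median and highest levels were given for called genes and, in lists with fewer than 3, for up to 3 genes of smallest p. Up to 4 called genes of smallest p were named in each neighbouring list, and others (Hkdc1, Pfkfb2, Pfkfb4, Slc2a1, Pcx) after their values were seen. A result among the neighbouring glycolytic enzymes, and the count of that list, are not reported here. The genes and lists were chosen with earlier results of these data known. Motifs were searched with Python 3.11.15.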

Additional observations from a re-analysis of the deposited data

Results flagged for a closer look

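Each gene of the set was checked for a library far from its group, over 82 groups of 10 libraries, where chance alone gives about 1 in 20. There were 3 such libraries. Eno1 stood at 120 CPM in Str library SV1, with the next Str library at 108 and a Str median of 105 CPM. Pdk1 stood at 95.03 CPM in Str library SV5, with the next at 78.3 and a Str median of 71.4 CPM. Suclg1 stood at 357 CPM in Con library CV3, one of the 4 that hold Alb, with the next at 313 and a Con median of 293 CPM.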

How the results depend on the processing

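All 11 calls held with RLE factors, no filter, edgeR's own filter, DESeq2, limma-voom and the letter as a covariate. Without the 15% of genes that vary least, Gpi1 lost its call and 1 glycolysis gene was lower, with 1100 lower genes in all. limma-voom and the letter covariate each gave 4 lower citric acid cycle genes. Lower genes in all also rose, to 1697 (10.7%) in limma-voom and 1412 (8.89%) with the letter, beside 1226 (7.72%) in the main fit. Library sizes alone gave 3 higher glycolysis genes, 2 lower pentose phosphate genes, 0 higher and 5 lower citric acid cycle genes, and 1949 lower genes in all. V libraries alone gave 2 higher and 1 lower in glycolysis, 0 lower in the pentose phosphate pathway, 0 higher and 1 lower in the citric acid cycle, and 807 higher and 817 lower genes in all. L libraries alone gave 0 in each list and 9 higher and 2 lower genes in all. Without the 4 Con libraries that hold Alb, 6 of 11 calls held, with 2 higher glycolysis genes, 2 lower pentose phosphate genes, 0 higher citric acid cycle genes, and 854 higher and 608 lower genes in all. These subsets hold fewer libraries.

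Whether the numbers shared by column names pair Str with Con libraries is not known. The deviations of 8 same-named pairs from their group means correlated at 0.0044 to 0.479, and 2 of 8 correlated best with their own number. Differences between V and L libraries were not removed from these deviations, so the correlations cannot settle the pairing. With the replicate block on those 16 libraries, 0 pentose phosphate genes and 1 citric acid cycle gene were lower, 8 of 11 calls held (Pfkp, Taldo1 and Sdhb lost theirs), Ldha, Pgk1 and Eno1 became called as higher (edgeR adjusted p = 0.0339, 0.0301 and 0.0452), which made 7 higher glycolysis genes, and 1553 genes were higher and 1360 lower. The same libraries with no block, chosen after seeing the data, gave 3 higher and 1 lower in glycolysis. They gave 0 lower in the pentose phosphate pathway, 1 lower in the citric acid cycle, and 1371 higher and 1210 lower genes in all. Log2 values that changed sign with the block were -0.013 for Pdk1 and 0.020 for Tkt, beside -0.013 and 0.018 with no block.

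Leaving out 1 library at a time gave 3 to 5 higher and 1 to 3 lower glycolysis genes, 1 lower pentose phosphate gene, 0 to 1 higher and 2 to 4 lower citric acid cycle genes, and 1151 to 1567 higher and 902 to 1605 lower genes in all. No called gene changed sign in any alternative. Uncalled genes near 0 did. With library sizes alone Gapdh was at -0.034, Pdk1 at -0.021 and Sdhd at -0.031. In V libraries Pdk1 was at -0.0045, Tkt at 0.022 and Mdh2 at 0.016. In L libraries Pfkl was at 0.030, Aldoc at 0.0060, Gapdh at -0.072, Pgam1 at -0.047, Dlat at -0.0017 and Sdhd at -0.015. Gapdh was at -0.039 without the 4 Con libraries and at -0.0042 in limma-voom. With single libraries left out, Gapdh ranged over -0.016 to 0.030, Sdhd over -0.0077 to 0.035 and Pdk1 over -0.030 to 0.040. The cause of these changes was not tested.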
